A study of Oryza sativa Japonica Group with 6 samples.

Results

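The 34 genes described here are MIKC-type MADS-box genes of rice, chosen by family membership from published locus numbers among the 55801 loci of the deposited tables. They carry MADS numbers between 1 and 61 and fall into 12 clades. Their RNA was measured by stranded mRNA-seq in 14-day-old untreated seedlings of the cultivar Nipponbare (Oryza sativa Japonica Group), grown in chambers under an SD photoperiod. The groups were osino80, which carries the osino80-2 allele of OsINO80 (the gene for the ATPase subunit of the INO80 chromatin remodeller), and wild type (WT), with 3 libraries each. The labels do not describe the lesion, name 1 mutant allele, and do not state if each library is a plant or pool of its own, so the p-values reflect variation among these 6 libraries, part or all of which may be technical. The OsINO80 locus, taken as LOC_Os03g22900, stood at 59.9, 61.1 and 60.8 CPM (counts per 1000000) in osino80 and 119, 116 and 121 CPM in WT. Its level in osino80 was about 0.511 of that in WT, and counts per locus cannot tell intact from altered transcript.

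MIKC proteins are transcription factors with a DNA-binding MADS domain, an intervening and a keratin-like domain through which they pair, and a variable C terminus. Combinations of them specify floral organs: AP1/FUL-like genes act in the switch to flowering, B-class genes (PI and AP3 types) in lodicules and stamens, C- and D-class genes (AG and STK types) in stamens, carpels and ovules, and E-class genes (SEP types) as partners of the rest. Other clades (SOC1, SVP, FLC-like, AGL17 and AGL12 types) act in vegetative tissue, in flowering time, hormone response and roots. Many floral members are known Polycomb targets in plant leaves, carrying the repressive histone mark H3K27me3.

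The 12 members of non-floral clades held 89.9% to 91.0% of the TPM summed over the 34 genes in osino80 and 90.1% to 90.9% in WT, and many floral members were close to silent. That sum was 319 to 334 TPM in osino80 and 301 to 308 TPM in WT. A member was called silent in a genotype when it had at most 30 counts over the 3 libraries, out of 61426662 to 73293481 counts per library. By that limit 12 of 34 members were silent in osino80 and 12 in WT, and they were the same 12 genes; the numbers moved with the limit, to 6 in osino80 and 9 in WT at 6 counts, 14 in osino80 and 13 in WT at 60 counts, and 7 in osino80 and 11 in WT at under 0.1 TPM in each library. Over all loci 55.7% lay at or below 30 counts in osino80 and 55.9% in WT. Of the 22 members in floral clades 9 were silent in both genotypes, and of the 12 in the other clades 3 were. The members nearest the limit were MADS8 and MADS25, with 18 counts each in osino80, and MADS61, with 17 in WT, on the inside, and MADS20, with 42 in osino80, and MADS32, with 48 in WT, on the outside.

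**Figure D1:**
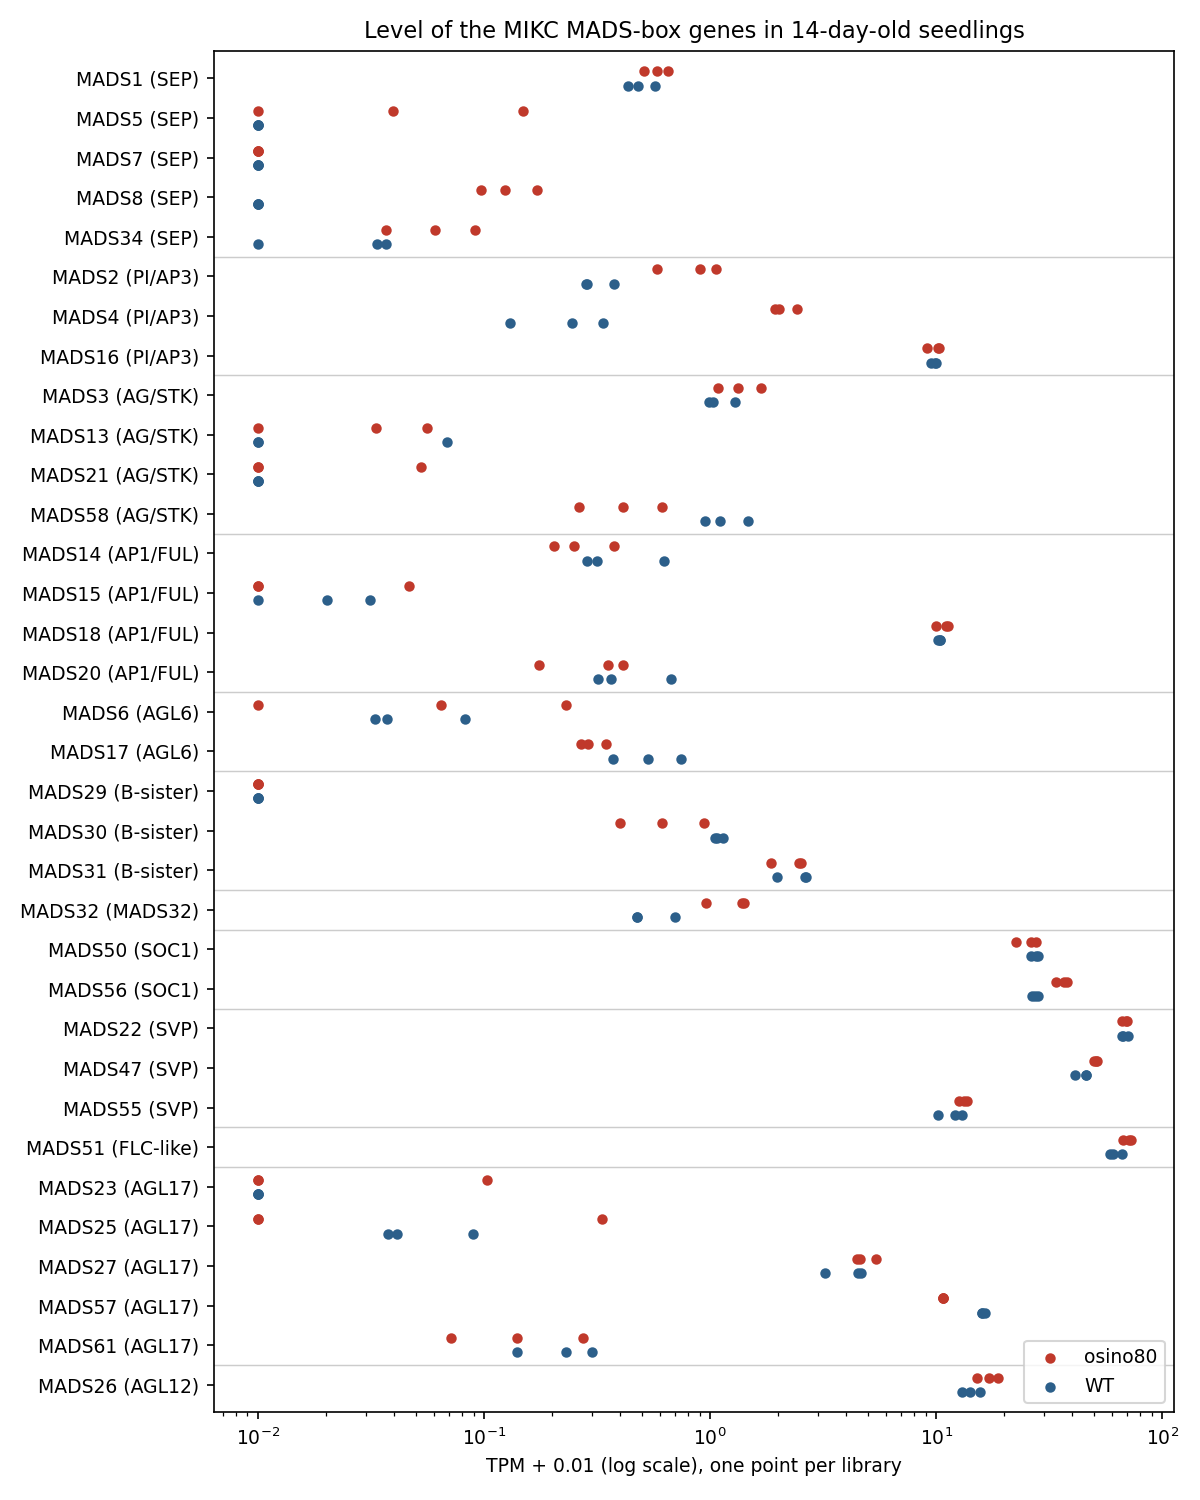
Level of each of the 34 genes in TPM (transcripts per 1000000, plus 0.01, log axis), 1 point per library, osino80 above WT in each row, with clades in brackets. SOC1, SVP, FLC-like and AGL12 members lie above 10 TPM in every library, most SEP members sit at or near 0, and MADS4 is the member whose groups lie farthest apart among those above 1 TPM.

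The silent set held 4 of the 5 SEP genes (MADS5, MADS7, MADS8 and MADS34, which is also known as PAP2 and acts in inflorescence and spikelet identity). It also held the D-class ovule genes MADS13 and MADS21, the AP1/FUL-like meristem identity gene MADS15, MADS6, an AGL6 gene of floral meristems, and MADS29, a B-sister gene of seed development. Outside the floral clades it held MADS23, MADS25 and MADS61, all of the AGL17 clade. MADS7 and MADS29 had 0 counts in all 6 libraries, where a floor of 3 counts corresponds to 0.0409 to 0.0488 CPM. That floor takes each count as a fragment of its own. The highest count of any silent member in any library was 18, and the highest level was 0.324 TPM, both for MADS25 in osino80 replicate 3.

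None of the 12 silent members had enough counts to enter the gene test, so 0 of them was called higher. Among the tested loci with at most 30 counts over the WT libraries, 42.5% of 482 were called higher in osino80, but those loci were tested because they had counts in osino80. Counts were more numerous in osino80 for 8 of the silent members, fewer for 2 and equal for 2, with 94 counts over all 12 in osino80 and 48 in WT. In each library 82.4% to 83.7% of counts between 1 and 20 were even, as happens when both reads of a fragment are counted, so the number of fragments behind these counts is smaller still.

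MADS8, an E-class gene, was the silent member with counts in every osino80 library and in no WT library. It had 6, 6 and 6 counts in osino80 and 0, 0 and 0 in WT. The level in osino80 was 0.114, 0.0871 and 0.162 TPM. With 3 counts over the WT libraries together as the floor, the deposited counts gave a 6.45-fold difference. That value takes each count as a fragment of its own and leaves out the error of the osino80 counts, so it is not a lower bound. Exact permutation of 3 against 3 libraries cannot go below a two-sided p of 0.1, and the call depended on whether the locus was tested at all. Without the low-count filter it passed with edgeR (adjusted p = 0.0275), and it passed with DESeq2 (adjusted p = 0.00871). Both fits used the deposited counts, where both reads of a fragment seem to be counted. Halved counts were run only with the filter, so MADS8 was not tested on them. At an unadjusted p under 0.05 without the filter, MADS5 was the other silent member to pass with edgeR (unadjusted p = 0.0444, adjusted p = 0.136). The other silent members with more counts in osino80 than in WT overlapped between genotypes or differed by few counts. MADS5 had 2, 0 and 7 counts in osino80 and 0, 0 and 0 in WT. MADS34 had 2, 3 and 2 counts in osino80 and 0, 2 and 1 in WT. In MADS25, MADS6, MADS21 and MADS23 the excess came from a single library: MADS25 had 0, 0 and 18 counts in osino80, MADS6 had 2, 10 and 0, and MADS21 and MADS23 had 0, 0 and 4 each. Their WT counts were 6, 2 and 2 for MADS25, 2, 5 and 1 for MADS6, and 0 in every library for MADS21 and MADS23. MADS13 had 4, 2 and 0 counts in osino80 and 4, 0 and 0 in WT.

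**Figure D2:**
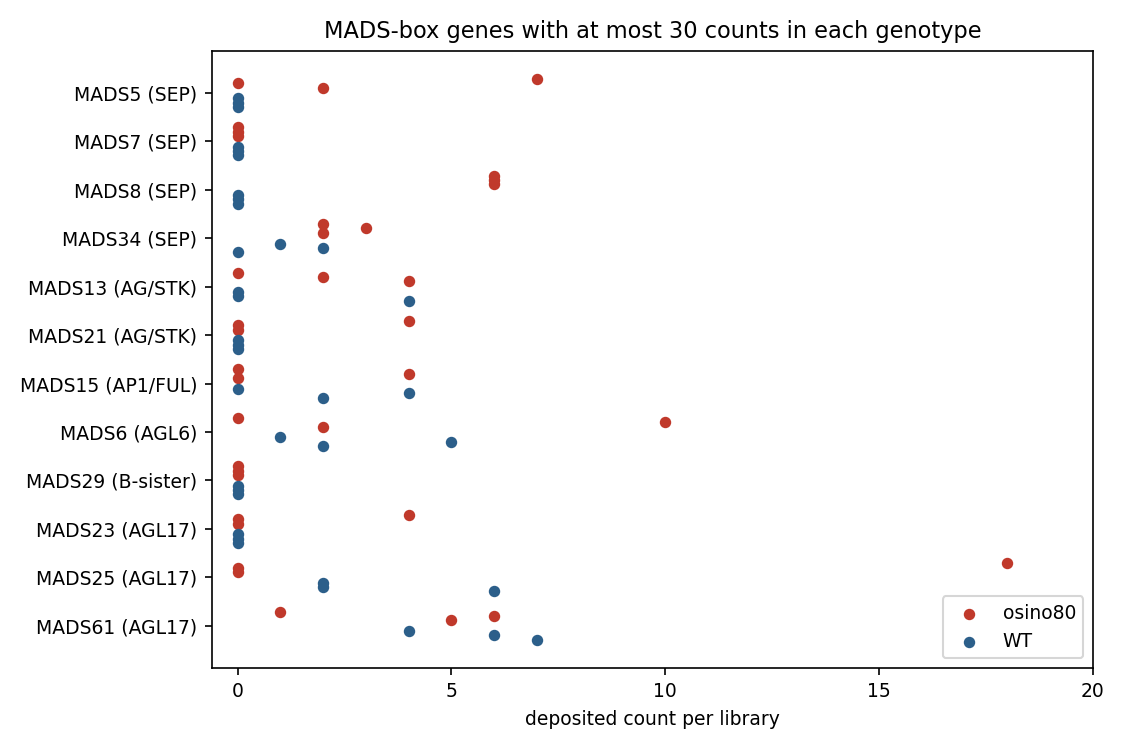
Deposited counts per library of the 12 genes with at most 30 counts over the 3 libraries of each genotype (points; osino80 above WT; small vertical offsets separate libraries). Only MADS8 has counts in all 3 osino80 libraries and none in WT; no point exceeds 18 counts.

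Of the 34 members 22 passed the low-count filter and were tested with edgeR's quasi-likelihood test over 24914 genes, with Benjamini-Hochberg adjustment and a threshold of 0.05 ("adjusted p" below). In osino80 6 members were higher (MADS2, MADS4, MADS26, MADS47, MADS51 and MADS56) and 3 lower (MADS30, MADS57 and MADS58), together 40.9% of those tested, while 13 did not pass. Over all genes 37.6% were called, 18.4% higher and 19.1% lower, so the share of members called was near the background. The groups did not overlap in CPM in 12 of 22 tested members, or 54.5%, against 45.7% of all tested genes. The median log2 fold change was 0.10 over the tested members and 0.00 over all tested genes, and the median absolute value 0.27 against 0.16. These medians were not matched for level. The median absolute value was 0.56 over the tested members of floral clades and 0.23 over those of the other clades. Changes of at least 2-fold were called in 3 members, 2 higher and 1 lower; over all genes 2.43% were called at least 2-fold higher and 1.33% at least 2-fold lower.

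**Figure D3:**
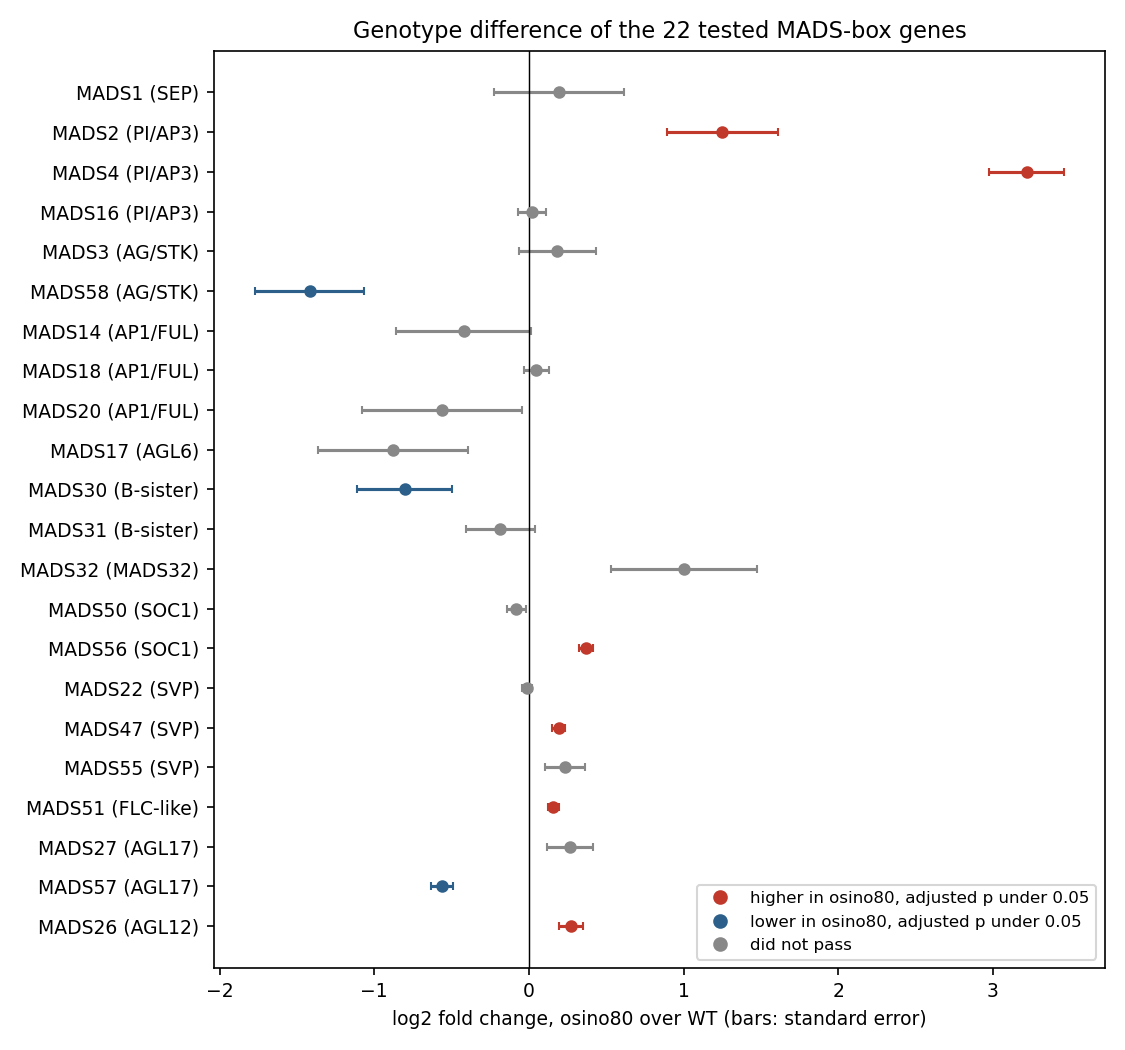
Log2 fold change of osino80 over WT for the 22 tested members, with its standard error as a bar and clades in brackets. Red points passed as higher in osino80, blue as lower, and grey did not pass; MADS4 at 3.22 lies farthest from 0, and the abundant members (at least 10 TPM in WT) reach at most 0.56 in size.

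Of the 3 B-class genes both PI types were higher in osino80, where 18.4% of all tested genes were, and the AP3 type did not pass. The largest difference among the 22 tested members was that of MADS4. MADS4 (LOC_Os05g34940, chromosome 5), a PI-type gene needed for lodicules and stamens, had 211, 188 and 186 counts in osino80 and 32, 16 and 19 in WT. Per length this was 2.42, 2.01 and 1.92 TPM in osino80 and 0.328, 0.120 and 0.236 TPM in WT. Every osino80 library lay far above every WT library. The difference was 9.32-fold (log2 fold change 3.22 ± 0.24 SE, adjusted p = 3.10e-32). Its level ranked 13th of 34 in osino80 and 22nd in WT by mean TPM. MADS2 (LOC_Os01g66030, chromosome 1), the other PI-type gene, had 46, 52 and 78 counts in osino80 and 26, 24 and 28 in WT. These groups also did not overlap, at 0.918 ± 0.229 CPM in osino80 and 0.386 ± 0.0621 CPM in WT (SD, n = 3 each). The log2 fold change was 1.25 ± 0.36 (adjusted p = 0.00225). The call was lost without osino80 replicate 3 (adjusted p = 0.0501; its alternatives spanned 0.000729 to 0.0501). MADS2 and MADS4 are paralogues, and how the counting treated reads that fit both is not given in the sources used here.

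MADS16 (LOC_Os06g49840), also called SPW1, is the AP3-type gene whose product pairs with the PI types. Among members of floral clades it came next after MADS18 by mean TPM in each genotype, with 10.3, 9.12 and 10.1 TPM in osino80 and 9.84, 9.47 and 9.93 TPM in WT. The ranges overlapped, and the log2 fold change of 0.02 ± 0.09 did not pass (adjusted p = 0.891). The AP3-type partner had a higher level per length than both PI-type genes in each genotype.

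Of the C-class genes MADS3 and MADS58, 1 was lower, where 19.1% of all tested genes were. MADS58 (LOC_Os05g11414, chromosome 5), an AG-type gene of floral meristem determinacy, had 24, 29 and 16 counts in osino80 and 70, 52 and 75 in WT. All osino80 libraries lay below all WT libraries, at 0.365 ± 0.114 CPM in osino80 and 0.977 ± 0.240 CPM in WT (SD, n = 3 each). The log2 fold change was -1.42 ± 0.36 (adjusted p = 0.000394). MADS3 (LOC_Os01g10504), the AG-type gene of stamen identity, had 1.32, 1.08 and 1.66 TPM in osino80 and 1.02, 1.28 and 0.978 TPM in WT. Its ranges overlapped, and 0.18 ± 0.25 on the log2 scale did not pass.

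**Figure D4:**
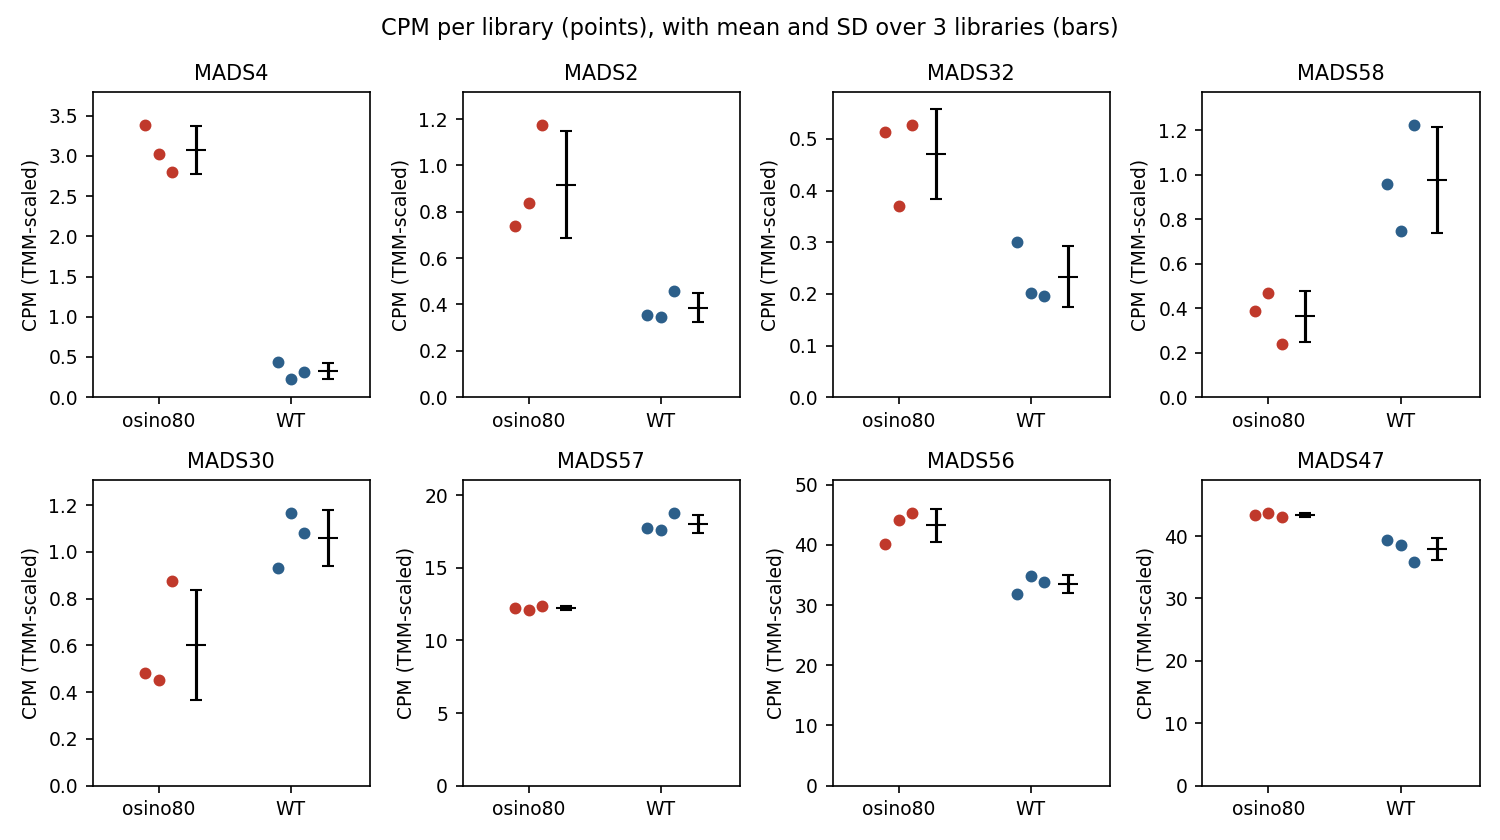
TMM-scaled CPM of 8 members per library (points, osino80 left and WT right), with the mean and SD over 3 libraries as a bar; each axis starts at 0 and has its own scale. In MADS4, MADS2, MADS32, MADS56 and MADS47 all osino80 points lie above all WT points, and in MADS58, MADS30 and MADS57 all lie below.

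In the remaining floral clades (SEP, AP1/FUL, AGL6, B-sister and MADS32) 1 of 8 tested members passed. Over all floral clades 4 of 13 tested members did (30.8%), where 37.6% of all tested genes did. Low counts limited what could be called in several of the 8. MADS30 (LOC_Os06g45650), a B-sister gene by descent, had 30, 28 and 58 counts in osino80 and 68, 81 and 66 in WT. The log2 fold change was -0.80 ± 0.31 (adjusted p = 0.0265). The call was lost without osino80 replicate 1 (0.115), osino80 replicate 2 (0.137), WT replicate 2 (0.101) or WT replicate 3 (0.0618) and on TPM; its alternatives spanned adjusted p values of 0.00611 to 0.137. MADS31 (LOC_Os04g52410), a B-sister gene of seed tissue, had 2.52, 1.85 and 2.45 TPM in osino80 and 2.62, 1.97 and 2.64 TPM in WT and did not pass, at -0.18 ± 0.22 on the log2 scale. MADS32 (LOC_Os01g52680), a floral organ gene of the grasses, had 32, 23 and 35 counts in osino80 and 22, 14 and 12 in WT. Its groups did not overlap, but 1.003 ± 0.474 on the log2 scale did not pass on counts (adjusted p = 0.0838). It passed on the deposited TPM with limma (adjusted p = 0.00611 on log2(TPM + 1); its alternatives spanned 0.00611 to 0.216). MADS17, an AGL6 gene, had 14, 16 and 14 counts in osino80 and 26, 37 and 24 in WT; the groups were apart, but -0.88 ± 0.48 did not pass.

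MADS18 (LOC_Os07g41370), an AP1/FUL-like gene that promotes flowering, was the only member of its clade above 1 TPM. It had 11.3, 11.1 and 9.998 TPM in osino80 and 10.2, 10.4 and 10.3 TPM in WT. The log2 fold change of 0.05 ± 0.08 did not pass. MADS14 and MADS20 of the same clade had 19 to 32 and 10 to 18 counts per osino80 library, and 24 to 44 and 20 to 25 per WT library; at -0.42 ± 0.44 and -0.56 ± 0.52 on the log2 scale neither passed. MADS1, a SEP gene of lemma and palea identity and the only SEP gene that was tested, had 24, 40 and 30 counts in osino80 and 38, 35 and 16 in WT (0.19 ± 0.42, not passed).

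Of the 9 members at or above 10 TPM in WT 4 were called higher and 1 lower, against 18.4% higher and 19.1% lower over all tested genes. Those shares were not matched for level, and small changes can pass in abundant genes. These 9 belonged to the SOC1, SVP, FLC-like, AGL17 and AGL12 clades, except MADS18 of the AP1/FUL clade. Their largest absolute log2 fold change was 0.56. The SOC1 clade held 2 genes with opposite roles. MADS56 (LOC_Os10g39130), a repressor of flowering under long days, had 33.8, 36.9 and 37.8 TPM in osino80 and 26.4, 28.2 and 27.2 TPM in WT. The groups did not overlap, with a log2 fold change of 0.37 ± 0.04. MADS50 (LOC_Os03g03070), which promotes flowering under long days, had 22.6, 27.5 and 26.3 TPM in osino80 and 28.1, 27.7 and 26.3 TPM in WT and did not pass (-0.08 ± 0.06). In WT their TPM ranges overlapped, and in osino80 every MADS56 value lay above every MADS50 value.

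The SVP genes of rice act in brassinosteroid response and meristem identity. MADS47 (LOC_Os03g08754) had 50.7, 51.4 and 50.1 TPM in osino80 and 46.0, 46.1 and 41.3 TPM in WT, without overlap (log2 fold change 0.19 ± 0.04, adjusted p = 4.01e-05). MADS22 (LOC_Os02g52340) had 68.8, 69.6 and 66.2 TPM in osino80 and 70.7, 66.5 and 66.9 TPM in WT. Its log2 fold change of -0.01 ± 0.03 did not pass and had a small error. MADS55 (LOC_Os06g11330), with 13.3, 13.6 and 12.6 TPM in osino80 and 10.1, 12.96 and 12.1 TPM in WT, did not pass either (0.23 ± 0.13). MADS51 (LOC_Os01g69850), an FLC-like gene that promotes flowering under short days, had 67.1, 72.4 and 70.9 TPM in osino80 and 58.8, 66.1 and 60.7 TPM in WT (log2 fold change 0.16 ± 0.04, adjusted p = 7.44e-05). MADS51 and MADS22 headed the order of levels in both genotypes: MADS51 stood 1st and MADS22 2nd in osino80 with overlapping ranges, and MADS22 stood above MADS51 in WT without overlap.

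The AGL17 clade is known for roles in roots and in tillering, and MADS23, MADS27, MADS57 and MADS61 are known targets of the microRNA miR444. MADS57 (LOC_Os02g49840), which acts in the control of tillering, was lower, with 10.7 TPM in each osino80 library and 15.9, 15.996 and 16.4 TPM in WT. The spread within each genotype was small beside the difference between them (log2 fold change -0.56 ± 0.07, adjusted p = 3.80e-13). MADS27 (LOC_Os02g36924), which acts in the root response to nitrate, had 4.47, 4.60 and 5.42 TPM in osino80 and 4.65, 3.22 and 4.48 TPM in WT and did not pass (0.27 ± 0.15). The other miR444 targets, MADS23 and MADS61, were silent by the limit above. MADS26 (LOC_Os08g02070), an AGL12 gene of stress response, had 15.1, 17.2 and 18.7 TPM in osino80 and 14.1, 12.96 and 15.6 TPM in WT. The ranges overlapped, and the log2 fold change of 0.27 ± 0.08 passed (adjusted p = 0.00203). The call was lost without osino80 replicate 3 (adjusted p = 0.0557) and on TPM; its alternatives spanned 0.000639 to 0.0570.

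Because several of these genes act in roots, markers were read for the tissues a seedling sample can hold. Of 7 root markers, the silicon transporter gene Lsi1 had 19.7 CPM in osino80 and 15.4 CPM in WT (log2 fold change 0.35 ± 0.07), and the silicon efflux gene Lsi2 had 0, 0 and 0 counts in osino80 and 12, 14 and 8 in WT. RCc3 and PIP2.5 were tested and did not pass, QHB and CRL1 had at most 4 counts in a library, and NRT2.1 had 0 in all 6. Summed over the 7 root markers, levels were 20.6 to 21.4 CPM in osino80 and 16.2 to 17.3 CPM in WT, nearly all of it from Lsi1. The shoot meristem gene OSH1 also had 0 counts in every library. The 3 Rubisco small subunit genes of green leaf had 2180 to 10558 CPM in osino80 and 2260 to 11219 CPM in WT. All 3 were called lower, where 19.1% of all tested genes were, but by small log2 fold changes of -0.05 to -0.09. The part of tissue make-up in the differences above was not tested, and fewer cells of a type cannot be told apart from less RNA per cell.

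Position in the genome was read from the order of locus numbers. For the 9 called members, the 3 loci on each side gave 54 neighbours, of which 41 were tested, 6 were higher and 11 lower, against 18.4% higher and 19.1% lower over all tested genes, and 1 passed at 2-fold or more, against 2.43% higher and 1.33% lower at that size. That one, LOC_Os10g39160, the third after MADS56, had 0, 4 and 1 counts in osino80 and 14, 13 and 18 in WT. It was tested because it had counts in WT. Beside MADS4 the locus before it had 0 counts in every library, and the locus after it changed by 0.18 ± 0.07 on the log2 scale. MADS14 and MADS34 have adjacent numbers; MADS14 did not pass, and MADS34 had too few counts to test.

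MADS37 (LOC_Os08g41960), an FLC-like MADS-box gene that is not among the 34, is numbered next to MADS7 and was higher in osino80. It had 469, 368 and 470 counts in osino80 and 100, 96 and 85 in WT. This is a 4.96-fold difference (log2 fold change 2.31 ± 0.15, adjusted p = 1.03e-42) beside a locus, MADS7, with 0 counts in all 6 libraries. Of the 5 further MADS-box loci listed, MADS37 was the one tested, and MADS33, MADS62, MADS63 and MADS68 had at most 14 counts in any library. The reference table of rice genes does not hold the name MADS37, so its name rests on the published locus number.

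**Figure D5:**
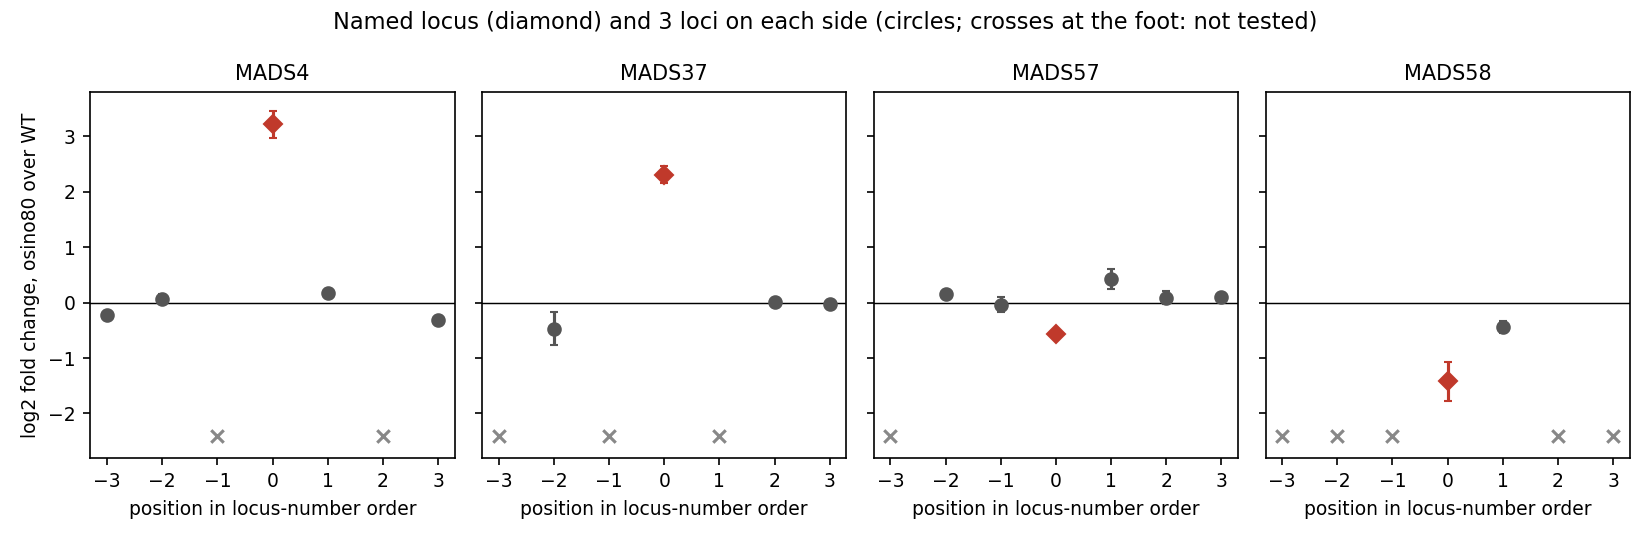
Log2 fold change of osino80 over WT for MADS4, MADS37, MADS57 and MADS58 (diamonds) and for the 3 loci on each side in locus-number order (circles), with standard errors; crosses at the foot mark loci with too few counts to test. No tested neighbour shown passed at 2-fold or more, and the locus before MADS37 is MADS7.

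Genes that act with the floral MADS-box genes were read from lists. Of 11 other floral and inflorescence regulators 5 were tested and 3 were higher, where 18.4% of all tested genes were. IDS1 (LOC_Os03g60430), an AP2-type regulator of spikelet meristems, had 17.3, 15.5 and 14.9 CPM in osino80 and 11.04, 11.9 and 11.8 CPM in WT (log2 fold change 0.46 ± 0.07); the reference table places a gene of that name on another chromosome. The inflorescence gene TAW1 rose by 0.22 ± 0.07 and the AP2-type gene SNB by 0.15 ± 0.06 on the log2 scale. TAW1 lost its call without osino80 replicate 2 (adjusted p = 0.0747) or WT replicate 1 (0.0581) and on log2(TPM + 1) (0.0515), in a range of 0.00490 to 0.0747, and SNB lost it in 10 of 17 alternatives, in a range of 0.00585 to 0.399. RFL, the rice LEAFY homologue, FZP, LAX1, RCN2, RCN4 and G1 had at most 6 counts in any library, and DL, numbered near MADS1, did not pass (0.11 ± 0.17). The median log2 fold change of the tested members of this list was 0.15.

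Florigen and its regulators gave 1 call in 8 tested, where 37.6% of all tested genes were called. PHYB, a phytochrome gene, was lower (log2 fold change -0.16 ± 0.03), and Hd3a, a florigen gene, did not pass (-0.22 ± 0.27). Among 8 Polycomb genes 7 were tested and 1 passed, beside the same 37.6%. The groups did not overlap in CPM in 4 of these 7, against 45.7% of all tested genes. The gene that passed, FIE2, a PRC2 core gene, was lower (log2 fold change -0.12 ± 0.03, adjusted p = 0.00103). The H3K27 methyltransferase genes EZ1 (-0.10 ± 0.04) and CLF (-0.00 ± 0.05) did not pass, although EZ1 did without osino80 replicate 3 (adjusted p = 0.0400; its alternatives spanned 0.0400 to 0.226). The median log2 fold change was 0.12 over the tested florigen genes and -0.00 over the tested Polycomb genes.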

How the data were processed

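The authors deposited raw counts per gene and TPM (transcripts per 1000000). The submitters' processing notes name the tools featureCounts, HISAT2, cutadapt and SAMtools, without versions; build, strand setting of the counting and the handling of multi-mapping reads were not given in the sources used here. Libraries were stranded, per the labels' protocols. Genes were tested on the counts with edgeR 4.0.16 in R 4.3.3 (filterByExpr, TMM, glmQLFit with robust=TRUE, glmQLFTest, two-sided, all 6 libraries); the test was checked on simulated data. CPM values are TMM-scaled. A standard error is the log2 fold change divided by the square root of F. TPM serves to compare levels between genes. No 2 libraries of a genotype agreed within sampling noise, at 1.81 to 2.04 chi-square per gene on halved counts. Floors cover counting error only.

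Locus numbers carry no names in the files; 29 of 34 names were found in the reference table (assembly ASM3414082v1) on the chromosome the locus number gives, in the same order in 34 of 34 pairs, 4 were not found and MADS2 matched several genes. Of the 45 further names listed, 18 matched the chromosome, 2 (IDS1 and RCN1) another one and 25, OsINO80 among them, were not found. Members and lists were chosen with earlier results of these data known. Members past the threshold, above 1 TPM, or silent in WT with more counts in osino80 are given in every library; MADS37, Lsi2, LOC_Os10g39160 and the list members under 1.5-fold were named after their values were seen. Alternatives were other scalings, filters and pseudocounts (1 and 0.1), DESeq2 1.42.0, limma 3.58.1 voom, limma on TPM, robust=FALSE, halved counts, a replicate block, and each library left out. No sequences were used.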

Additional observations from a re-analysis of the deposited data

How the results depend on the processing

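The 6 higher and 3 lower members gave 4 to 6 and 2 to 3 calls with a library left out, and 6 and 3 with the replicate number as a block; no member changed its call under the block. The deviations of libraries with the same number from their group means correlated at 0.019, 0.00692 and 0.0282, and no pairing was assumed. MADS4, MADS47, MADS51, MADS56, MADS57 and MADS58 kept direction and call in all 17 alternatives. On log2(TPM + 1), which understates low genes, MADS4 changed by 1.35 and MADS58 by -0.61. Without the low-count filter, and with DESeq2, 1 member silent in WT (MADS8) was called higher on the deposited counts, against 0 otherwise, where it was not tested. Members silent in osino80 numbered 6 at a limit of 6 counts and 7 at under 0.1 TPM in each library, against 12; in WT these numbers were 9 and 11. At a limit of 60 counts they numbered 14 in osino80 and 13 in WT. Members silent in each genotype stayed at 12 with any library left out. Counts of all genes called ranged from 4037 to 4159 higher and 4201 to 4356 lower with a library left out. For tested members under 1 CPM in both genotypes, standard errors of 0.36 to 0.52 on the log2 scale limit what could be called.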
